A study of Mus musculus with 26 samples.

Results

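The 10 tubulin isotype genes described here encode 7 beta-tubulins (Tubb3, Tubb2a, Tubb2b, Tubb4a, Tubb4b, Tubb5 and Tubb6) and 3 alpha-tubulins (Tuba1a, Tuba1b and Tuba1c). The list was chosen by measured values: the RNA-seq counts had already placed Tubb3 among the genes lower in KO-labelled libraries, so the RNA differences of the members between the genotypes are given as a description, with no test. The 10 genes were taken from 52535 gene rows in 4 RNA-seq libraries. All 10 were among the 17273 genes that passed the filter on low counts, Tubb4a through the KO-labelled libraries alone, where it is high. Loops were taken where an anchor lay within 2500 bases of one of the 10 genes, which gave 355 of 489409 loops in the KO-labelled list and 200 of 143451 loops in the WT-labelled list.

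The KO-labelled cells were a Klf4 knockout of E14, a mouse embryonic stem cell line, and the WT-labelled cells were E14 with no edit named. Both are labelled as neural progenitor cells (NPC) after 12 days of neural induction. Before induction both were grown as stem cells on gelatin in medium with serum, LIF and the kinase inhibitors PD0325901 and CHIR99021. RNA-seq had 2 libraries per genotype, described as biological replicates, and RNA polymerase II HiChIP had 1 loop list per genotype, which the labels attach to both of its samples. How many knockout clones were used is not given in the sources used here.

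Microtubules are polymers of alpha- and beta-tubulin dimers, and mammals make each subunit from several genes whose products differ mostly in their C-terminal tails. Cells also tune tubulin mRNA to the pool of free dimers: when free tubulin is in excess, a ribosome-bound factor recognises newly made tubulin chains and their mRNAs are degraded. Tubb3 is the beta-tubulin of neurons and their newly born precursors and the target of a widely used neuronal antibody. Tubb2b and Tuba1a are abundant in the developing brain, and mutations of either gene disturb cortical development in humans.

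The promoter windows of 4 members are printed because the results below set these genes apart. No RNA or loop value below was derived from the sequences. A loop anchor covered the start site of Tubb3 in the WT-labelled list alone and that of Tubb4a in the KO-labelled list alone, and Tuba1a and Tuba1b are chromosome neighbours whose mRNAs differed in opposite directions. Each window runs from 250 bases before to 50 bases after the RefSeq start, 5′ to 3′ on the gene's strand (RefSeq sequence, GRCm38.p6, the assembly also called mm10). Such windows were searched for 8 of the 10 members, and Tubb2b and Tubb6 were left out of the search. Tubb3 is at chr8:123411303-123411602 on the plus strand, and Tubb4a is at chr17:57087551-57087850 on the minus strand. Tuba1a is at chr15:98953452-98953751 and Tuba1b at chr15:98934341-98934640, both on the minus strand. Capitals mark exact matches on either strand of the GC box word GGGCGG, the CACCC-type words GGGTGTGG and GGGTGGGG, the CCAAT word and the TATA word TATAAA.
Tubb3: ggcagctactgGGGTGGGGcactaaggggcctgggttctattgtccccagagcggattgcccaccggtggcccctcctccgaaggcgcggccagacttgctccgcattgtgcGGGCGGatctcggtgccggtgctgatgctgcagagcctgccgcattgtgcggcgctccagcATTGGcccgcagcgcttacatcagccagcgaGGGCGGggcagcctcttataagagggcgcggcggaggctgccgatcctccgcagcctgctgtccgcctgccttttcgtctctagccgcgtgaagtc
Tubb4a: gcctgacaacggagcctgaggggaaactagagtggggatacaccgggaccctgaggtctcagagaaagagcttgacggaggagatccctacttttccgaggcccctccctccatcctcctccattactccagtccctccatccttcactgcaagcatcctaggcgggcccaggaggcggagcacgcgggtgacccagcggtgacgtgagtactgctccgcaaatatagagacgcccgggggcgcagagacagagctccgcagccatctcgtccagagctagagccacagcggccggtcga
Tuba1a: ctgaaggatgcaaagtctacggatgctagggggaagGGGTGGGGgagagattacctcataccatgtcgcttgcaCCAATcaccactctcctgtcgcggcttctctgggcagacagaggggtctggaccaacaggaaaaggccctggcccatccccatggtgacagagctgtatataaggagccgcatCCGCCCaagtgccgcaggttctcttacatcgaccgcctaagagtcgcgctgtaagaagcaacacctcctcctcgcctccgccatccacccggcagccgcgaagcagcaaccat
Tuba1b: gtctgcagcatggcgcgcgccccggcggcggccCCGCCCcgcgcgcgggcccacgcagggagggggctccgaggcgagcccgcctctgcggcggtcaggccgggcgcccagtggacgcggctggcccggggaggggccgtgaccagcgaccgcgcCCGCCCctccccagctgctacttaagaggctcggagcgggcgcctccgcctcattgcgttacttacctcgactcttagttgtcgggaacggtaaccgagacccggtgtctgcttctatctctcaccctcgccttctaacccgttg

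The Tubb3 window held GGGCGG at 138 and 46 bases before the start, GGGTGGGG at 239 bases and CCAAT, on the opposite strand, at 77 bases, counted to the first base of each match. Tuba1a held the same 3 words, with GGGTGGGG at 214, CCAAT at 176 and GGGCGG, on the opposite strand, at 63 bases before the start. Tuba1b held GGGCGG on the opposite strand at 217 and 95 bases and the E-box word CAGCTG, left in lower case, at 84 bases. The Tubb4a window held none of the 7 words searched, which also included the E-box CACGTG. None of the matches overlapped another. Over all 32851 windows of this length, 35.7% held GGGCGG, 37.4% CCAAT, 9.99% GGGTGGGG, 3.56% GGGTGTGG, 13.6% TATAAA, 16.3% CAGCTG and 7.15% CACGTG, so a match of the commoner words is an ordinary feature of a mouse promoter. The windows of Tubb2a and Tubb4b held TATAAA, at 29 bases before and from base 19 after the start.

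Klf4 itself went against the labels. It had 2571 and 2538 counts in the KO-labelled libraries and 0 and 0 counts in the WT-labelled libraries. Each direction below is therefore that of the labels as deposited, and it turns round if the labels of its assay were exchanged. In the HiChIP loop lists the direction at Klf4 was the other one, with 4 tags in kept loops (defined below) in the KO-labelled list and 32 in the WT-labelled list. Any comparison of RNA with loops assumes that both assays carry their labels in the same order, which was not tested. The libraries held 29835774 to 37703866 gene counts. Of 17273 genes, 73.1% passed an edgeR adjusted p of 0.05, 37.2% higher and 35.8% lower in KO-labelled libraries, and the libraries of the 2 genotypes did not overlap for 86.3%, so passing the threshold is the common state of a gene here. With library size alone as the scaling, 62.0% of the calls were higher, against 50.9% with TMM scaling. Pluripotency markers were high in both, with 12 markers summing to 4705 and 4760 CPM (counts per 1000000 gene counts, TMM-scaled) in KO-labelled libraries and 8592 and 8611 CPM in WT-labelled libraries.

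Tubb3 mRNA was lower in the KO-labelled libraries, at 22.2 and 20.3 CPM, against 140 and 142 CPM in the WT-labelled libraries. These values rest on 762 and 727 counts in KO-labelled libraries and on 4915 and 3917 counts in WT-labelled ones. Both KO-labelled libraries lay far below both WT-labelled ones, and the replicates of each genotype were close to each other. The log2 fold change was -2.73 ± 0.0569 (edgeR estimate ± SE, n = 2 and 2), 6.63-fold lower in KO-labelled libraries. In bulk RNA, fewer Tubb3-expressing cells and less Tubb3 RNA per cell cannot be told apart. All 10 isotypes passed the threshold stated above, 8 lower and 2 higher in KO-labelled libraries, and none overlapped between the genotypes. These counts come from the contrast that chose the list.

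Neuronal markers did not share one direction with Tubb3. For this and the other marker lists, the shares to set beside the counts are those of all genes tested, 37.2% called higher and 35.8% called lower. Of 16 tested neuron markers, 12 rose and 3 fell in KO-labelled libraries, with 2 of the 18 listed under the filter. Their summed level was nevertheless lower, at 348.1 and 339.3 CPM in KO-labelled libraries and 443.2 and 419.5 CPM in WT-labelled libraries. One gene, Stmn2, which encodes a tubulin-binding growth cone protein, sets the direction of that sum. It had 165 and 164 CPM in KO-labelled libraries and 365 and 348 CPM in WT-labelled libraries (log2 fold change -1.11 ± 0.0327, edgeR adjusted p = 6.45e-20). This difference is larger than that of the sum, so the other listed markers together were higher in KO-labelled libraries. Among them, Ina had 90.2 and 86.0 CPM in KO-labelled libraries and 6.38 and 5.64 CPM in WT-labelled libraries. Stmn2 and Ina were singled out after their values were seen. Dcx, a defining marker of young neurons, had 0 and 5 counts in KO-labelled libraries and 0 and 0 counts in WT-labelled libraries, too few to be tested. Of 13 tested neural progenitor markers, 12 rose and 1 fell, and Fabp7, Hes5 and Nr2f1 were at 0 in both WT-labelled libraries.

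Markers of other lineages also moved with the genotype, where 37.2% of all genes tested were called higher and 35.8% lower. All 14 mesoderm, muscle and fibroblast markers rose, with sums of 489 and 473.3 CPM in KO-labelled libraries and 8.948 and 7.479 CPM in WT-labelled libraries, and Mesp1, Acta1, Actc1, Bgn and Prrx1 were at 0 in both WT-labelled libraries. Endoderm markers rose in 6 of 7 tested (65.96 and 64.74 CPM in KO-labelled, 3.078 and 3.107 CPM in WT-labelled libraries). Of 7 trophoblast and epithelial markers 5 rose and 2 fell (417.8 and 413.5 CPM in KO-labelled libraries, 34.85 and 31.51 CPM in WT-labelled libraries), and of 6 endothelial markers 4 rose and 2 fell. Pluripotency markers fell in 9 of 12 and rose in 3. The part of these cell populations in the tubulin differences was not tested.

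The other beta-tubulins linked to neurons differed from Tubb3 in size and, for one, in direction. Tubb2b, the beta-tubulin of migrating neurons, had 200 and 211 CPM in KO-labelled libraries, against 579 and 569 CPM in WT-labelled libraries, a log2 fold change of -1.48 ± 0.0307. Its neighbour Tubb2a, a beta-tubulin of mature neurons, had 19.8 and 18.4 CPM in KO-labelled libraries and 30.0 and 28.3 CPM in WT-labelled libraries, a log2 fold change of -0.61 ± 0.092. Both were lower in both KO-labelled libraries, Tubb2a by the smaller margin.

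Tubb4a, a beta-tubulin of brain and myelin-forming oligodendrocytes, went the other way. It had 8.40 and 7.59 CPM in KO-labelled libraries, against 0.199 and 0.0361 CPM in WT-labelled libraries. The WT-labelled values are 7 and 1 counts, beside 288 and 272 counts in the KO-labelled libraries, and 3 counts correspond to 0.0837 to 0.108 CPM. The pooled counts per library size were 62.7 times higher in KO-labelled libraries (exact 95% interval 31.6 to 146, counting error only). The fitted log2 fold change was 5.94 ± 0.378, and it ran from 5.29 to 7.64 when each library was left out.

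The broadly expressed beta-tubulins were all lower in KO-labelled libraries. Tubb5, a main beta-tubulin of dividing and embryonic cells, had 1670 and 1640 CPM in KO-labelled libraries and 2770 and 2810 CPM in WT-labelled libraries (log2 fold change -0.75 ± 0.0212). Tubb4b, which is broadly expressed and needed for cilia, had 432 and 430 CPM in KO-labelled libraries and 1010 and 1030 CPM in WT-labelled libraries (-1.24 ± 0.0249). Tubb6, a beta-tubulin of non-neuronal cells that rises in regenerating muscle, had 108 and 102 CPM in KO-labelled libraries and 126 and 130 CPM in WT-labelled libraries (-0.29 ± 0.0432). Tubb6 had the smallest difference of the 10, and with library size alone as the scaling its log2 fold change was -0.08, short of the threshold. The annotated pseudogene Tubb4b-ps1 had 5.69 and 5.91 CPM in KO-labelled libraries and 13.5 and 13.6 CPM in WT-labelled libraries. These counts do not show how many reads such near-identical copies share with their parents.

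Among the alpha-tubulins, Tuba1a stood apart. This isotype, the main alpha-tubulin of postmitotic neurons, had 494 and 484 CPM in KO-labelled libraries, against 344 and 341 CPM in WT-labelled libraries, and was higher by 0.51 ± 0.0275 on the log2 scale. Tuba1b, the ubiquitous alpha-tubulin of dividing cells, had 1080 and 1040 CPM in KO-labelled libraries and 2110 and 2120 CPM in WT-labelled libraries (-1.0 ± 0.0234). Tuba1c, the third of this chromosome 15 cluster, had 384 and 359 CPM in KO-labelled libraries and 812 and 821 CPM in WT-labelled libraries (-1.14 ± 0.0293). The libraries of the 2 genotypes were apart for each of the 3 genes. Coding sequences of the 3 are close to identical. Reads whose alignment was not unique stand in a row of their own, 7.06% to 7.69% of each column, outside the gene counts. How many of those reads match these genes is not given in the sources used here, so these values carry that uncertainty.

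**Figure D1:**
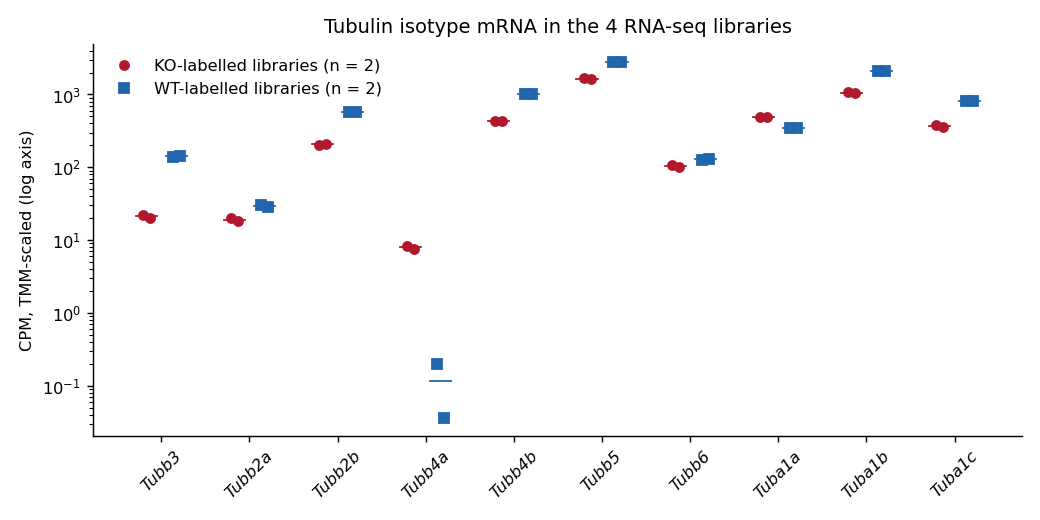
TMM-scaled counts per 1000000 (log axis) of the 10 tubulin isotype genes, with 1 point per library, KO-labelled (circles) left of WT-labelled (squares), and a bar at each mean (n = 2 per genotype). KO-labelled points lie lower for 8 genes and higher for Tubb4a and Tuba1a, and the 2 points of a genotype nearly coincide except for Tubb4a in WT-labelled libraries, which had 7 and 1 counts.

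Summed over isotypes, tubulin mRNA was lower in KO-labelled libraries. The 7 beta members summed to 2463 and 2431 CPM in KO-labelled libraries and 4650 and 4702 CPM in WT-labelled libraries, a ratio of 0.523. The 3 alpha members summed to 1959 and 1879 CPM in KO-labelled libraries and 3269 and 3283 CPM in WT-labelled libraries, a ratio of 0.586. Together the 10 genes took 0.475% and 0.463% of gene counts in KO-labelled libraries and 0.737% and 0.741% in WT-labelled libraries. Beta counts exceeded alpha counts 1.26 and 1.29 times in KO-labelled libraries and 1.42 and 1.43 times in WT-labelled libraries. Counts are not corrected for gene length, so this ratio is not one of molecules, and only its difference between libraries can be read.

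Within each class the mix of isotypes also differed, and these shares do not depend on the scaling between libraries. Tubb3 made up 0.868% ± 0.0483 of beta member counts in KO-labelled libraries and 3.01% ± 0.00174 in WT-labelled libraries (SD, n = 2 each). Tubb2b likewise had the smaller share in KO-labelled libraries, 8.41% ± 0.413 against 12.3% ± 0.239 in WT-labelled libraries, and so did Tubb4b, 17.6% ± 0.108 against 21.7% ± 0.13 in WT-labelled libraries. Tubb5 had 67.7% ± 0.291 of beta counts in KO-labelled libraries and 59.6% ± 0.0966 in WT-labelled libraries. Tubb5 thus had a lower level and a larger share in KO-labelled libraries, while Tubb2b and Tubb4b were lower by more.

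The same held for Tubb6 and Tubb2a, the 2 beta isotypes with the smallest differences in level. Tubb6 had 4.29% ± 0.127 of beta counts in KO-labelled libraries and 2.74% ± 0.0474 in WT-labelled libraries, and Tubb2a had 0.78% ± 0.034 in KO-labelled libraries and 0.624% ± 0.0308 in WT-labelled libraries. Tubb4a reached 0.327% ± 0.0205 in KO-labelled libraries, against 0.00253% ± 0.00249 in WT-labelled libraries. Among the alpha genes, Tuba1a had 25.5% ± 0.377 of counts in KO-labelled libraries and 10.5% ± 0.0814 in WT-labelled libraries. Tuba1b had 55.2% ± 0.0276 in KO-labelled libraries and 64.6% ± 0.0543 in WT-labelled libraries, and Tuba1c had 19.3% ± 0.35 in KO-labelled libraries and 24.9% ± 0.136 in WT-labelled libraries. For all 10 isotypes the shares of the 2 genotypes did not overlap. The levels of the 2 genotypes did not overlap for 86.3% of all genes tested either. Shares within a class are bound to each other, and the isotypes were chosen from this contrast, so this adds no separate evidence.

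**Figure D2:**
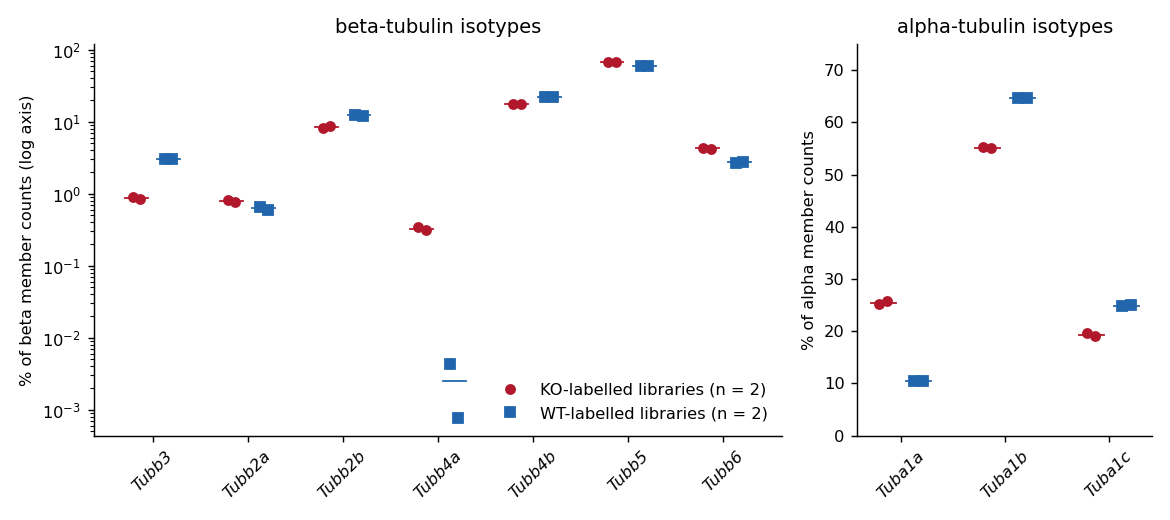
Share of each beta isotype in the summed counts of the 7 beta members (left, log axis) and of each alpha isotype in those of the 3 alpha members (right), with 1 point per library, KO-labelled (circles) left of WT-labelled (squares), and a bar at each mean (n = 2 per genotype). Tubb3, Tubb2b, Tubb4b, Tuba1b and Tuba1c take smaller shares in KO-labelled libraries, and Tubb2a, Tubb4a, Tubb5, Tubb6 and Tuba1a larger ones.

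HiChIP joins chromatin immunoprecipitation with proximity ligation, so a loop here is a pair of anchors whose fragments were ligated and pulled down with RNA polymerase II. A tag is 1 such ligated pair, and a loop was kept when its deposited FDR was at most 0.01 and it had at least 2 tags. The KO-labelled list held 57463 kept loops with 285890 tags and the WT-labelled list 22148 kept loops with 175142 tags. The KO-labelled list covered 173 Mb of anchors and the WT-labelled list 92.5 Mb, so a gene is more likely to meet an anchor in the KO-labelled list. With 1 list per genotype there is no replicate check, and intervals below cover counting error only.

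Tubb3 had an anchor within the window in the WT-labelled list alone. The anchor, chr8:123409552-123412981, covers the Tubb3 start site and ends within the gene, and it also reaches the 3′ part of Mc1r, the melanocortin receptor gene next to Tubb3. It carried 8 loops with 9 tags in the WT-labelled list, none of them kept, and the lowest FDR was 0.0231. The far ends lay near Def8, Spire2, Spg7, Piezo1 and Zfpm1. In the KO-labelled list Tubb3 had 0 tags of 977208. Anchors were listed separately for each genotype, so a gene with no listed anchor has 0 tags by construction, and no ratio of the lists is given for it.

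The absence in the KO-labelled list depends on the window. The nearest KO-labelled anchor, chr8:123405565-123408455, lay 3.1 kb from Tubb3, at the 5′ end of Mc1r and near Tcf25. It carried 10 loops with 11 tags, of which 1 loop with 2 tags was kept. A window of 10000 bases takes in that anchor. Among 15612 genes tested in RNA-seq and placed on the genome, 87.6% had an anchor within the window in the KO-labelled list and 78.1% in the WT-labelled list. Genes with an anchor in the WT-labelled list alone were 3.75%, and those with one in the KO-labelled list alone 13.2%. Over all such genes, the median log2 fold change was -0.46 for an anchor in the WT-labelled list alone, 1.33 for one in the KO-labelled list alone, -0.07 for both and 0.08 for neither.

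Tubb4a was placed the other way round. The KO-labelled list had 2 anchors at it, chr17:57086256-57088770 over the start site and chr17:57077255-57079482 just beyond its 3′ end, over the start of the neighbouring gene Dennd1c. They carried 33 loops with 59 tags, and 2 loops were kept, 1 of 4 tags to Vav1 and 1 of 2 tags to Rfx2, a transcription factor of ciliated cells. The WT-labelled list had no anchor within the window and 0 tags of 407150, the nearest lying 32.7 kb away. The Vav1 loop starts at the anchor on the Dennd1c side, which does not overlap Tubb4a, so it is lost where an anchor must overlap the gene and the 2-tag loop to Rfx2 is left. Vav1 had 14 and 18 counts in KO-labelled libraries and 1 and 2 counts in WT-labelled libraries and rose (edgeR adjusted p = 0.00445), and Rfx2 fell (-0.35 ± 0.0519, edgeR adjusted p = 1.57e-06).

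Tubb2a and Tubb2b lie 49.0 kb apart on chromosome 13. The KO-labelled list joined them by a loop of 14 tags (FDR 5.56e-06), against 3 tags (FDR 0.954, not kept) in the WT-labelled list. Tag numbers of single loops are not scaled to the lists, which held 977208 tags (KO-labelled) and 407150 tags (WT-labelled) in all. Tubb2a had 9 kept loops with 98 tags in the KO-labelled list, 343 per 1000000 tags (95% interval 278 to 418), and no kept loop in the WT-labelled list, where it had 9 loops with 26 tags (upper limit 21.1 per 1000000 for kept tags). Of the 98 tags, 59 lay in 3 loops to the gene model 4930447K03Rik, between the 2 tubulin genes. Other kept ends lay at Slc22a23, an organic ion transporter gene, with 9 tags, and at Pxdc1, with 2 tags. Slc22a23 rose by 3.13 ± 0.155 on the log2 scale (edgeR adjusted p = 5.41e-14) and Pxdc1, with 392 and 383 counts in KO-labelled libraries and 1 and 0 counts in WT-labelled libraries, rose as well (edgeR adjusted p = 8.42e-16).

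Tubb2b had 8 kept loops with 65 tags in the KO-labelled list and 5 kept loops with 81 tags in the WT-labelled list. Per 1000000 tags this is 227 (175 to 290) in the KO-labelled list and 462 (367 to 575) in the WT-labelled list. The WT-labelled list held 2 strong loops at it, 1 of 44 tags to the gene model Gm36549 at higher coordinates and 1 of 30 tags to 4930447K03Rik. The loop on the Gm36549 side was present in both lists, split over 2 anchors with 21 and 12 tags in the KO-labelled list. So at this pair Tubb2a had the larger share of kept tags in the KO-labelled list and Tubb2b in the WT-labelled list. Both mRNAs were lower in KO-labelled libraries. Anchors differed in width between the lists. The Tubb2a anchor spanned 7322 bases in the KO-labelled list, where it also reached Bphl, and 2344 bases in the WT-labelled list. The Tubb2b anchor spanned 8021 bases in the KO-labelled list and 6482 bases in the WT-labelled list. The part of anchor width in these tag numbers was not tested.

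**Figure D3:**
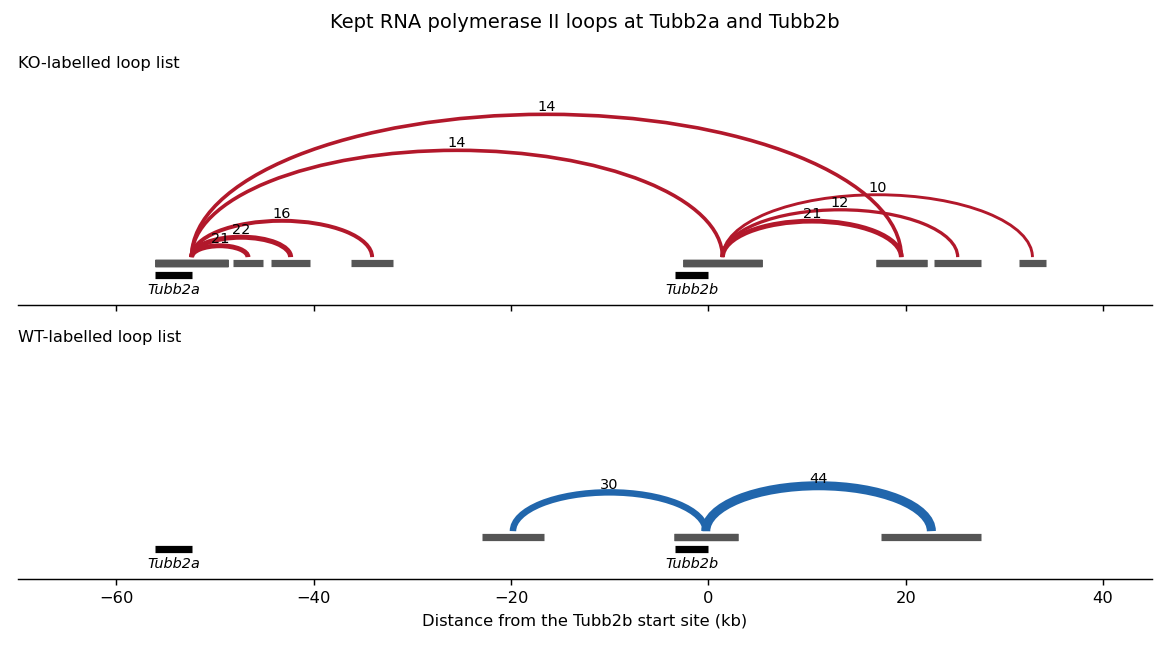
Kept RNA polymerase II loops between anchors near Tubb2a and Tubb2b, drawn against distance from the Tubb2b start site in kb, KO-labelled list above WT-labelled list. Arcs join anchor centres with their tag number above them, grey bars are anchors and black bars genes. In the KO-labelled list 14 tags join Tubb2a to Tubb2b, and in the WT-labelled list the 2 arcs of 30 and 44 tags both start at Tubb2b.

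The alpha-tubulin cluster on chromosome 15 showed the same kind of link. Tuba1a and Tuba1b, 15.5 kb apart, were joined by 11 tags (FDR 0.00252) in the KO-labelled list and by 3 tags (FDR 1) in the WT-labelled list. Neither number is scaled to its list, and the lists held 977208 tags (KO-labelled) and 407150 tags (WT-labelled) in all. Tuba1a had 5 kept loops with 29 tags in the KO-labelled list and 1 with 13 tags in the WT-labelled list. Per 1000000 tags this is 101 (67.9 to 146) in the KO-labelled list and 74.2 (39.5 to 127) in the WT-labelled list. Tuba1b had 14 kept loops with 87 tags in the KO-labelled list and 7 with 58 tags in the WT-labelled list. Per 1000000 tags this is 304 (244 to 375) in the KO-labelled list and 331 (251 to 428) in the WT-labelled list. Tuba1c had 7 with 18 tags in the KO-labelled list and 5 with 13 tags in the WT-labelled list. Per 1000000 tags this is 63.0 (37.3 to 99.5) in the KO-labelled list and 74.2 (39.5 to 127) in the WT-labelled list. The intervals of the lists overlapped for each of these 3 genes in kept loops, although Tuba1a mRNA was higher and Tuba1b and Tuba1c mRNA lower in KO-labelled libraries.

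Over all listed loops, kept or not, the shares were lower in the KO-labelled list for all 3. Tuba1a had 81.9 tags per 1000000 in the KO-labelled list and 93.3 in the WT-labelled list, so its direction turned with the keeping rule. Tuba1b had 151 in the KO-labelled list and 302 in the WT-labelled list, and Tuba1c had 62.4 in the KO-labelled list and 169 in the WT-labelled list.

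Tuba1b made 37 tags in the KO-labelled list and 44 tags in the WT-labelled list with the gene model B430209F14Rik, which lies beyond Tuba1a. The 37 tags include the 11 of the loop to Tuba1a. With 4930578M01Rik it made 14 tags in the KO-labelled list and 31 tags in the WT-labelled list, where the 31 are also among the 44. In the KO-labelled list it also made 12 tags with Dhh, the desert hedgehog ligand gene. Tuba1c contacted Fmnl3, a formin that shapes actin filaments, with 7 tags and Nckap5l, a centrosomal protein gene, with 5 tags in the KO-labelled list. In the WT-labelled list Tuba1c contacted Tmbim6, an endoplasmic reticulum protein gene, with 5 tags and Atf1, a CREB-family factor gene, with 4 tags. Fmnl3 fell by 0.71 in KO-labelled libraries on the log2 scale, Tmbim6 fell by 0.44 and Atf1 fell by 0.12.

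Among the broadly expressed beta genes, Tubb5 had 9 kept loops with 80 tags in the KO-labelled list and 11 with 81 tags in the WT-labelled list. Per 1000000 tags this is 280 (222 to 348) in the KO-labelled list and 462 (367 to 575) in the WT-labelled list. A partner with many tags in both lists was the anchor at Nrm and Ppp1r18, with 32 tags in the KO-labelled list and 24 tags in the WT-labelled list. A second, at Mrps18b and Ppp1r10, had 22 tags in the KO-labelled list and 25 in the WT-labelled list. In the WT-labelled list Tubb5 also had 7 tags (FDR 1.08e-12) to an anchor holding Pou5f1, the gene of the pluripotency factor Oct4, with Tcf19 and Cchcr1. The KO-labelled list joined Tubb5 to an anchor at Tcf19 and Cchcr1 by 2 tags (FDR 0.002), and the WT-labelled list likewise held a second loop of 2 tags to an anchor at these genes (FDR 0.00586). This far end was singled out after its values were seen. Pou5f1 had 429 and 431 CPM in KO-labelled libraries, against 835 and 847 CPM in WT-labelled libraries.

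Tubb4b had the larger share of kept tags in the KO-labelled list, with 19 kept loops and 116 tags against 7 loops and 36 tags in the WT-labelled list. Per 1000000 tags this is 406 (335 to 487) in the KO-labelled list and 206 (144 to 285) in the WT-labelled list. These intervals do not overlap, and counting error is not the error between cultures. Over all listed loops the direction turned, with 190 tags per 1000000 in the KO-labelled list and 251 in the WT-labelled list. Its partners included Ndor1, an oxidoreductase gene, with 25 tags in the KO-labelled list and 24 tags in the WT-labelled list. Nrarp, a Notch pathway regulator gene, was reached in the KO-labelled list with 17 tags, and it rose by 1.14 ± 0.339 on the log2 scale (edgeR adjusted p = 0.00427). Tubb6 had 2 kept loops with 5 tags in the KO-labelled list and no kept loop in the WT-labelled list. In the KO-labelled list 3 tags went to the anchor at the centrosomal protein gene Cep76 and Psmg2 and 2 tags to one near 4930549G23Rik. The WT-labelled list held loops to the same genes that were not kept, with 2 tags (FDR 0.0149) and 1 tag (FDR 0.0531). Over all listed loops Tubb6 had 40.9 tags per 1000000 in the KO-labelled list and 71.2 in the WT-labelled list.

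Over the 10 genes together, the KO-labelled list held 73 kept loops with 479 tags and the WT-labelled list 36 with 282 tags. As a share of all kept tags these were 1680 per 1000000 in the KO-labelled list and 1610 in the WT-labelled list, a ratio of 1.04 (0.896 to 1.21). This ratio depends on the keeping rule. Over all listed loops, a setting chosen after the data were seen, the 10 genes held 355 loops with 1007 tags in the KO-labelled list and 200 loops with 651 tags in the WT-labelled list. As a share of all tags this is 1030 per 1000000 in the KO-labelled list and 1600 in the WT-labelled list, a ratio of 0.644. A kept loop was found at 9 members in the KO-labelled list and 6 in the WT-labelled list, beside 68.8% of all 15612 genes in the KO-labelled list and 51.5% in the WT-labelled list. Kept loops were thus more frequent in the KO-labelled list over all genes too. Neighbouring members share loops, which are counted once here.

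**Figure D4:**
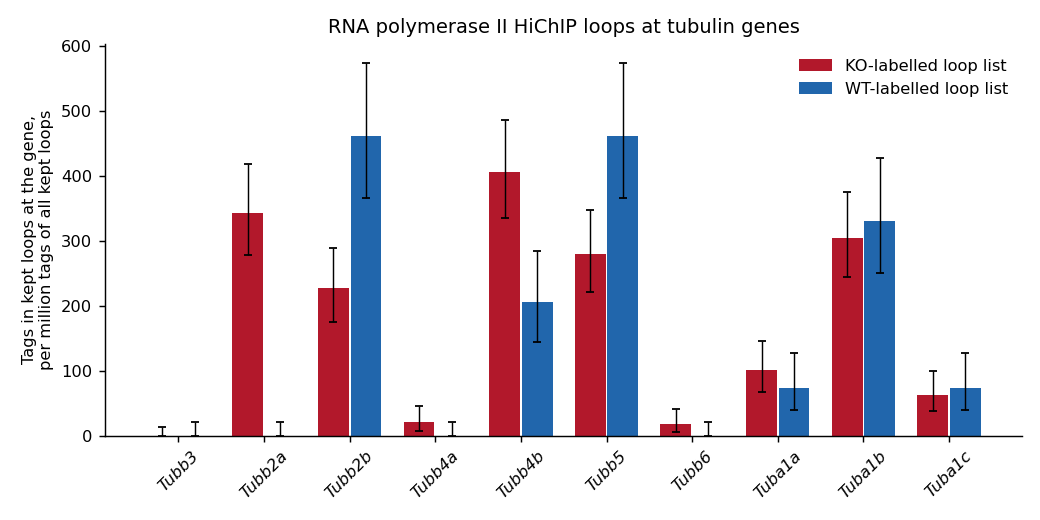
Tags in kept RNA polymerase II loops at each tubulin gene, per 1000000 tags of all kept loops of the list, KO-labelled list left of WT-labelled list, with exact binomial 95% intervals for counting error (1 list per genotype). Tubb2a reaches 343 per 1000000 in the KO-labelled list with no kept loop in the WT-labelled list, and Tubb2b and Tubb5 are higher in the WT-labelled list at 462 per 1000000.

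The genes next to the members on the chromosome varied in how far they moved with them. Dennd1c, a guanine nucleotide exchange factor gene 1532 bases from Tubb4a, had 8.64 and 8.59 CPM in KO-labelled libraries and 0.256 and 0.108 CPM in WT-labelled libraries, and rose by 5.47 ± 0.328 on the log2 scale. The gene model Gm11110 on the other side of Tubb4a rose as well, by 2.73 ± 0.594. Mc1r, 809 bases before Tubb3, had 0 and 0 counts in KO-labelled libraries and 21 and 3 counts in WT-labelled libraries, too few to be tested. Def8, on the other side of Tubb3, fell by 0.55 on the log2 scale to 52.5 and 50.2 CPM in KO-labelled libraries, against 72.9 and 77.9 CPM in WT-labelled libraries.

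Cidea, a lipid droplet protein gene 22937 bases from Tubb6, had 0 and 2 counts in KO-labelled libraries and 841 and 547 counts in WT-labelled libraries, 775 times higher in the WT-labelled libraries (exact 95% interval 214 to 6410, counting error only). Flot1, a membrane raft protein gene beside Tubb5, rose by 0.99 ± 0.0748 while Tubb5 was lower, and Mdc1, a DNA damage mediator on its other side, rose by 0.32 ± 0.0313. Bphl, 204 bases from Tubb2a, had 12.6 and 15.2 CPM in KO-labelled libraries and 12.7 and 11.5 CPM in WT-labelled libraries and did not pass the threshold. The strand setting of the counts is not given in the sources used here, so reads of overlapping genes could not be assigned by strand.

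The 5 genes with the pattern nearest to Tubb3 over the 4 libraries were Gabarapl2, Cd38, Dach1, Ly6a and Tfrc, by Euclidean distance of centred log2 CPM (0.0629 to 0.0909). Gabarapl2, an autophagy protein gene, had 39.1 and 36.9 CPM in KO-labelled libraries and 249 and 242 CPM in WT-labelled libraries. Tfrc, the transferrin receptor gene, had 118 and 116 CPM in KO-labelled libraries and 797 and 804 CPM in WT-labelled libraries. Their log2 fold changes ran from -2.78 to -2.69, beside -2.73 for Tubb3. With 2 groups of 2 libraries this likeness is mostly one of fold change. None of these 5 genes is in the neuron marker list.

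Other genes of the tubulin superfamily moved both ways. For this list and each list below, the shares to set beside the counts are those of all genes tested, 37.2% called higher and 35.8% called lower. Of 7 tested, 3 rose and 4 fell (median log2 fold change -0.36, beside 0.03 over all genes), and Tuba3b, Tubal3 and Tubb1 were under the filter. Tuba8, an alpha-tubulin of muscle and testis, had 2.98 and 2.87 CPM in KO-labelled libraries and 0.057 and 0.108 CPM in WT-labelled libraries, and rose (edgeR adjusted p = 6.24e-09), with pooled counts 36.7 times higher (15.5 to 114, counting error only). Tubg2, a gamma-tubulin gene, rose by 2.02 ± 0.631 (edgeR adjusted p = 0.00619), a call lost without KO replicate 1. Tuba4a, an alpha-tubulin that lacks the encoded C-terminal tyrosine of its relatives, fell by 0.89 on the log2 scale to 63.8 and 65.2 CPM in KO-labelled libraries, against 120 and 120 CPM in WT-labelled libraries. Tuba3a fell by 0.95 on the same scale.

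Genes that fold tubulin fell more often than they rose. Of 21 chaperones and cofactors (prefoldin, the CCT chaperonin and tubulin cofactors), 15 fell and 5 rose, and the median log2 fold change was -0.27. Without KO replicate 2 the number that rose was 2, and without WT replicate 1 or WT replicate 2 it was 3. Tbcb, a cofactor of alpha-tubulin, had 46.1 and 44.8 CPM in KO-labelled libraries and 96.7 and 85.6 CPM in WT-labelled libraries (log2 fold change -1.01 ± 0.0601, edgeR adjusted p = 1.1e-13), and Pfdn4, a prefoldin subunit, fell by 0.88. Tbce, a cofactor that also acts on alpha-tubulin, rose by 0.85 ± 0.0872, with 33.5 and 34.3 CPM in KO-labelled libraries and 19.3 and 18.3 CPM in WT-labelled libraries. Tbcel, which promotes tubulin breakdown, rose by 0.34 ± 0.0653.

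In the autoregulation list, 4 of 12 rose and 6 fell (median -0.21), beside 37.2% higher and 35.8% lower over all genes. Without WT replicate 2 the number that rose was 2. Ttc5, the factor that recognises nascent tubulin chains, had 69.6 and 68.3 CPM in KO-labelled libraries and 50.6 and 48.6 CPM in WT-labelled libraries, a rise of 0.47 ± 0.0573 (edgeR adjusted p = 5.94e-08). Scaper, which links it to the CCR4-NOT deadenylase, rose by 0.44 ± 0.0911 (edgeR adjusted p = 0.000124). Cnot11, the CCR4-NOT subunit that it contacts in human cells, fell by 1.33 to 52.6 and 56.3 CPM in KO-labelled libraries, against 137 and 137 CPM in WT-labelled libraries. Cnot9, another subunit, fell by 0.62.

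Enzymes that modify tubulin were mixed, with 8 of 23 higher, 9 lower and 6 not called (median 0.13). The number that rose was 5 without KO replicate 2, without WT replicate 1 or without WT replicate 2. Vash2, a tubulin detyrosinase, rose by 3.58 ± 0.279, with 7.67 and 9.37 CPM in KO-labelled libraries and 0.484 and 0.976 CPM in WT-labelled libraries (edgeR adjusted p = 2.07e-11). Ttll6, a polyglutamylase, fell by 2.03 to 1.84 and 3.35 CPM in KO-labelled libraries, against 9.69 and 11.7 CPM in WT-labelled libraries, and Tpgs2, a subunit of a polyglutamylase complex, fell by 0.72. Ttll10, a polyglycylase, rests on 30 counts in KO-labelled and 3 in WT-labelled libraries, and its higher call (adjusted p = 0.00536) was lost whenever any 1 library was left out.

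Of the 11 genes of the gamma-tubulin ring complex and nucleation, 2 rose, 5 fell and 4 were not called (median -0.08), beside 35.8% lower over all genes. Akap9, a Golgi and centrosome scaffold, rose by 0.79 ± 0.0566 and Nedd1 by 0.31 ± 0.085, while Mzt2 fell by 0.67 and Tubgcp2 by 0.64. With library size alone 6 rose, and with upper-quartile factors 4. General microtubule regulators were balanced, with 10 of 25 higher and 10 lower (median -0.02), of which 4 were lower with library size alone. The severing enzyme gene Fign rose by 2.97 ± 0.269 and Mapre3, a plus-end binding protein gene, by 2.13 ± 0.24. Tacc3, a spindle protein gene, fell by 1.30 and Fignl1 by 0.64.

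Mitotic spindle genes fell in 15 of 20 tested and rose in 2, beside 35.8% lower and 37.2% higher over all genes, with a median of -0.46. Aurka, the centrosomal kinase, had 102 and 100 CPM in KO-labelled libraries and 361 and 364 CPM in WT-labelled libraries (log2 fold change -1.84 ± 0.0333, edgeR adjusted p = 3.93e-24). Hmmr, a spindle assembly factor, fell by 0.94. Kif14 rose by 0.34 ± 0.0642 and Numa1 by 0.27 ± 0.0338. The broadly expressed tubulins Tubb5, Tubb4b, Tuba1b and Tuba1c were lower in the same libraries, and the part of cell division in those differences was not tested.

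Neuronal microtubule proteins went opposite to Tubb3 more often than with it. Of 21 tested, 13 rose, 5 fell and 3 were not called. The median log2 fold change was 1.42, and Dcx, Stmn4 and Dpysl4 were under the filter. The list shares Dcx, Map2 and Stmn2 with the neuron markers. Kif1a, the motor of synaptic vesicle precursors, had 106 and 100 CPM in KO-labelled libraries and 1.68 and 1.37 CPM in WT-labelled libraries (6.06 ± 0.0988, edgeR adjusted p = 4.71e-25). Crmp1, a tubulin-binding protein of growing axons, had 60.2 and 55.9 CPM in KO-labelled libraries and 4.13 and 3.61 CPM in WT-labelled libraries (3.90 ± 0.102). Mapt, which encodes the axonal protein tau, fell by 1.41 to 3.21 and 2.85 CPM in KO-labelled libraries, against 8.12 and 7.91 CPM in WT-labelled libraries, and Stmn3, a relative of Stmn2, fell by 1.67. Of the genes named in this paragraph, Stmn2, Stmn3 and Mapt had the direction of Tubb3.

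Among regulators that act on neuronal genes, 7 of 10 tested rose and 3 fell (median 1.07), with Neurog1, Neurog2, Neurod4 and Atoh1 under the filter. Sox11, a SoxC factor known to act on the Tubb3 promoter, had 77.0 and 81.4 CPM in KO-labelled libraries and 4.42 and 4.73 CPM in WT-labelled libraries (4.12 ± 0.0872, edgeR adjusted p = 8.86e-23), opposite in direction to Tubb3. Insm1, a zinc finger factor of neuronal and endocrine precursors, rose on low counts, 97 pooled in KO-labelled and 4 in WT-labelled libraries, 21.7 times higher per library size (8.21 to 81.3, counting error only). Neurog3, an endocrine proneural factor, fell, with 15 counts in KO-labelled and 102 in WT-labelled libraries. Rcor2, a CoREST-family corepressor, fell by 0.99 to 139 and 143 CPM in KO-labelled libraries, against 276 and 284 CPM in WT-labelled libraries.

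**Figure D5:**
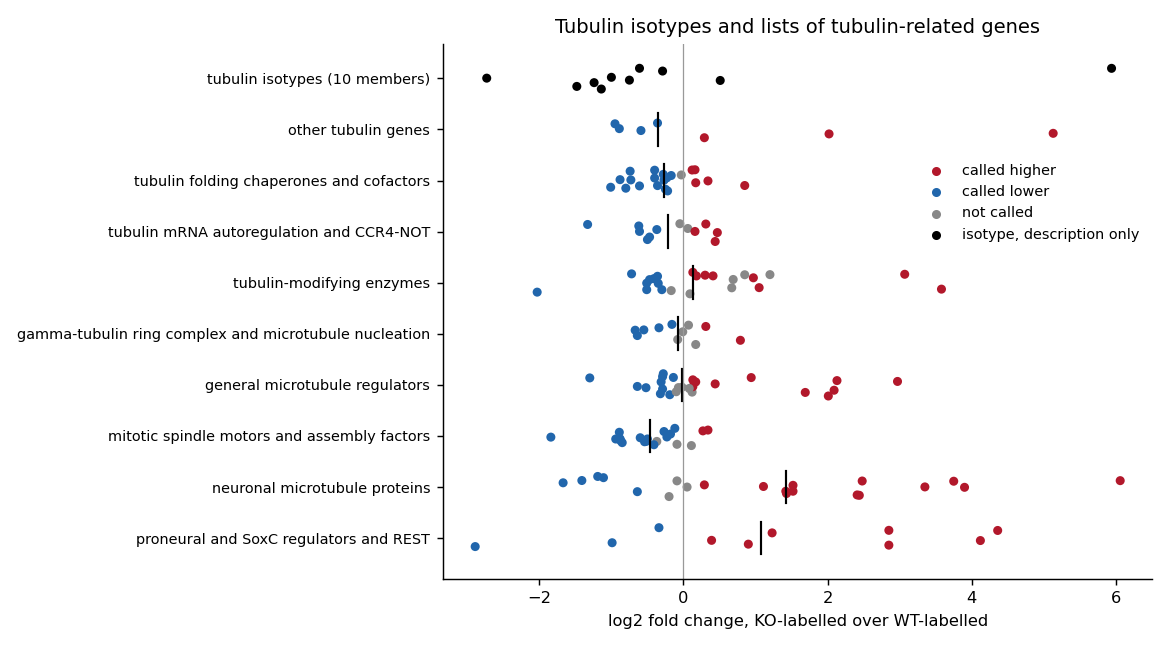
Log2 fold change, KO-labelled over WT-labelled, of the 10 tubulin isotypes (top row, black, description only) and of the tested genes of 9 lists, with 1 point per gene and a line at each list's median. Points of the lists are red where called higher, blue where called lower and grey where not called at an edgeR adjusted p of 0.05. The neuronal microtubule list has its median at 1.42 and the mitotic spindle list at -0.46.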

How the data were processed

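The 4 count files and 2 loop lists were used. RNA-seq values are whole-number read counts for each gene symbol, which the authors deposited without normalization. The submitters' processing notes name HISAT2 2.1.0, featureCounts 2.0.3 and the build mm10. The last rows of the files resemble htseq-count output, so which program counted is unclear. Rows that name no gene stayed out: reads without a feature were 6.05% to 8.07% and ambiguous reads 4.19% to 4.41% of each column. The loop lists hold 2 anchors, a tag count and a q-value (FDR) per loop, as the authors deposited them. The notes name HiC-Pro 2.11.1, and the loop caller is not given in the sources used here. The ChIP-seq samples of stem cells were not analysed here.

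Counts were fitted with edgeR 4.0.16 in R 4.3.3 (filterByExpr, TMM, quasi-likelihood test, robust, two-sided, Benjamini-Hochberg over 17273 genes, threshold 0.05). DESeq2 1.42.0, which the notes also name (1.18.1), was an alternative. CPM are counts scaled by TMM library size, and log2 fold changes are KO-labelled minus WT-labelled. Groups came from the sample titles. On simulated counts for this comparison, with its 17273 genes, edgeR recovered 76.5% of 2-fold and 94.8% of 4-fold changes and called 0.0966% of unchanged genes. Only 98 genes were changed 2-fold and 96 genes 4-fold there, in both directions alike. In the data 73.1% of genes were called, so these rates need not hold for them. Replicates of a genotype differed beyond sampling noise. Loops were assigned by anchor within 2500 bases of RefSeq gene spans (GRCm38.p6), and intervals are exact binomial at 95%.

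The members and all gene lists were chosen with earlier results of these data known. Named genes are Klf4, the 10 members, per list the 2 called genes that rose most and the 2 that fell most, the 5 genes nearest to Tubb3, up to 3 genes per member and loop list at the far anchors with the most tags, and chromosome neighbours. Alternatives were DESeq2, 3 other scalings, no filter, a replicate block, each library left out, 5 loop settings and, added after the data were seen, all listed loops.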

Additional observations from a re-analysis of the deposited data

How the results depend on the processing

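The isotypes were chosen from this contrast, so their calls under the alternatives do not show stability. With library size alone Tubb6 had a log2 fold change of -0.08 and was not called. The median of all genes moved by 0.21 with library size alone and by 0.12 with no filter. With the replicate block 6298 genes were called higher and 6112 lower, against 6428 and 6190 without it, and 8 isotypes were lower and 2 higher in both. Over all genes the deviations of same-numbered libraries had r = 0.0153, so the numbers were not used to pair samples. That rests on 2 pairs, and Kif11 was low in replicate 1 of both genotypes. Chaperones called higher numbered 3 with DESeq2 and 2 to 4 with a library left out, against 5. Autoregulation genes called higher numbered 2 to 4 with a library left out, against 4, and modifying enzymes 5 to 6, against 8. With library size alone, modifying enzymes called lower numbered 5 against 9, gamma-tubulin ring genes called higher 6 (4 with upper-quartile factors) against 2, and general regulators called lower 4 against 10. With at least 3 tags, the kept loops at the isotypes numbered 44 in the KO-labelled list and 19 in the WT-labelled list, and with an FDR of at most 0.001 the KO-labelled list had 48. A minimum of 1 tag changed nothing. Over all listed loops, a setting chosen after the data were seen, the loops numbered 355 in the KO-labelled list and 200 in the WT-labelled list, and the ratio of tag shares was 0.644 against 1.04, the opposite direction. A window of 10000 bases gave 84 loops in the KO-labelled list and 36 in the WT-labelled list. The cause of these changes was not tested, other than fewer loops under stricter thresholds. With 2 libraries per genotype and 1 loop list each, loop differences have no replicate error.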

Other observations

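Kif11, the spindle motor that slides antiparallel microtubules, had 3.71 and 35.9 CPM in the KO-labelled libraries and 4.76 and 47.8 CPM in the WT-labelled libraries. Replicate 1 was thus low in both genotypes, and the gene did not pass the threshold (log2 fold change -0.37 ± 1.92, edgeR adjusted p = 0.885). It was singled out after its values were seen.

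At the Klf4 gene, the loop lists held 23 loops with 33 tags in the KO-labelled list, of which 2 loops with 4 tags were kept, and 9 loops with 41 tags in the WT-labelled list, of which 1 loop with 32 tags was kept.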
